A study of Mus musculus with 12 samples.

Results

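Dual-specificity MAPK phosphatases are enzymes that remove phosphate from both the threonine and the tyrosine in the activation loop of a mitogen-activated protein kinase (MAPK) and so switch the kinase off. The set described here held 10 genes, Dusp1, Dusp2, Dusp3, Dusp4, Dusp5, Dusp6, Dusp7, Dusp8, Dusp10 and Dusp16. They were chosen by name, though with earlier results of these data known. All 10 were among the 23361 gene symbols in the files, and 8 of them reached at least 1 FPKM in at least 1 sample, as did 11191 of the 23847 rows. FPKM counts sequenced fragments per kilobase of transcript, corrected for how many fragments were mapped in the sample. Dusp8 and Dusp10 stayed under 1 FPKM in every sample and were kept out of the main test.

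LPS, a component of the outer membrane of Gram-negative bacteria, is sensed by macrophages through TLR4 and activates the ERK, JNK and p38 branches of the MAPK family within minutes. Transcription of several of these phosphatases is itself switched on by the same kinases, which makes them a feedback that ends the signal and limits the production of inflammatory cytokines. The enzymes differ in where they act and on which kinase. Dusp1, Dusp2, Dusp4 and Dusp5 are nuclear, Dusp6 and Dusp7 are cytoplasmic and prefer ERK, Dusp8, Dusp10 and Dusp16 prefer JNK and p38, and Dusp3 is a small atypical enzyme that lacks the kinase-docking domain of the others.

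Polyadenylated RNA was sequenced from wild-type mouse bone marrow-derived macrophages (BMDMs) in 12 samples. All groups shared C57BL/6 mice of 8-12 weeks and 6 days of culture with L929 supernatant, a source of M-CSF. The control group received nothing further, the IL-4 group received IL-4 at 20 ng/ml for 24 h, the LPS group received LPS at 100 ng/ml for 3 h, and the IL-4+LPS group received IL-4 for 24 h and then LPS for 3 h, with 3 samples in each. The design addresses whether alternative polarization by IL-4 alters the later response to LPS. The study describes 3 individual animals from 2 independent experiments, but the labels do not tie a replicate number to an animal or an experiment, and the p-values measure the spread between these samples.

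All 8 macrophage markers were expressed, Csf1r at 411 to 932 FPKM. Their summed level was 19378 to 20751 FPKM in control, 7585 to 7799 in IL-4, 16816 to 17853 in LPS and 6854 to 7153 in IL-4+LPS, mostly from Lyz2. Cd14 was at 144 to 163 FPKM in control, 13.5 to 19.3 in IL-4, 1155 to 1348 in LPS and 198 to 312 in IL-4+LPS. Of the 6 T cell markers, 2 reached 1 FPKM, with a summed level of 9.76 to 11.7 FPKM in control, 0.563 to 0.929 in IL-4, 7.26 to 9.69 in LPS and 0.928 to 2.64 in IL-4+LPS. These were Cd4 (9.62 to 11.7 FPKM in control and 0.495 to 0.81 in IL-4) and Lck (up to 3.36 FPKM in LPS), while the defining genes Cd3d, Cd3e and Cd3g reached at most 0.197 FPKM and the 5 stromal markers at most 0.176 FPKM. The 6 neutrophil and precursor transcripts in the files all reached 1 FPKM. Their summed level was 325 to 862 FPKM in control, 217 to 406 in IL-4, 514 to 1037 in LPS and 430 to 851 in IL-4+LPS, so that the IL-4 range overlapped control but lay below both groups that received LPS. Of the 5 dendritic cell markers 3 reached 1 FPKM, with a summed level of 26.9 to 43.6 FPKM in control, 299 to 345 in IL-4, 22.6 to 34.7 in LPS and 300.4 to 366 in IL-4+LPS that was nearly all Itgax. Zbtb46 was at 0 to 0.135 FPKM in control, 0.166 to 0.474 in IL-4, 0.487 to 0.562 in LPS and 1.94 to 2.83 in IL-4+LPS. Ccr7 reached at most 1.39 FPKM, in LPS, while Flt3 and Xcr1 reached at most 0.205 FPKM. The 4 IL-4 marker transcripts (Arg1, Retnla, Chi3l3 and Mrc1) and the 4 LPS marker transcripts (Il1b, Cxcl10, Tnf and Il6) were higher in sum in every sample that received the agent than in any that did not. The IL-4 sum was mostly Retnla. Mrc1 alone did not follow it, at 167 to 198 FPKM in control, 234 to 284 in IL-4, 94.2 to 118 in LPS and 114 to 176 in IL-4+LPS. The part of these transcripts in the results on the phosphatases was not tested. The 4 samples numbered 1 stood apart from the others of their groups (mean within-group r of 0.959 for pairs with replicate 1, against 0.977 between replicates 2 and 3). Results that rest on them are given with and without them where such a fit is at hand. The fit of replicates 2 and 3 only was chosen after this deviation was seen, so its smaller spread partly reflects that choice. Relative depth, read from the steps of the low values with control replicate 1 as 1, ran from 0.99 to 3.3, and the absolute depth is unknown.

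The transcripts shared little sequence with other transcripts read in the same direction, the only direction compared. In GENCODE vM21 the longest coding transcripts of the 10 members had 3 to 7 exons, and 8 of the 10 shared no 50-base word with a transcript of another gene. Dusp3 shared 0.45% and Dusp8 0.19% of its words. Genes on the opposite strand overlapped 3 members, Dusp3 (Gm20659 and Cfap97d1), Dusp5 (AC137853.2) and Dusp16 (Gm36328), and reads from the 2 strands cannot be told apart in these libraries. In mm10, the loci given in the files were chr17:26505591-26508472 (minus strand) for Dusp1, chr2:127336159-127338377 (plus) for Dusp2, chr11:101971144-101984791 (minus) for Dusp3, chr8:34807610-34819894 (plus) for Dusp4, chr19:53529318-53541322 (plus) for Dusp5, chr10:99263231-99267489 (plus) for Dusp6, chr9:106368632-106375723 (plus) for Dusp7, chr7:142079487-142095284 (minus) for Dusp8, chr1:184034461-184075636 (plus) for Dusp10 and chr6:134715473-134792628 (minus) for Dusp16.

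The promoters of Dusp1, Dusp2 and Dusp16 are shown, since these 3 genes had the highest levels under LPS relative to control and fell short of that level when IL-4 had been given first. Each is the RefSeq sequence of GRCm38.p6 before the start site, read 5′ to 3′ on the strand of the gene and kept to bases outside every GENCODE exon. Capitals mark cyclic AMP response elements (CRE, TGACGTCA) and their half-sites (TGACG on either strand).
Dusp1, chr17:26508520-26508722, minus strand, 250 to 48 bases before the start: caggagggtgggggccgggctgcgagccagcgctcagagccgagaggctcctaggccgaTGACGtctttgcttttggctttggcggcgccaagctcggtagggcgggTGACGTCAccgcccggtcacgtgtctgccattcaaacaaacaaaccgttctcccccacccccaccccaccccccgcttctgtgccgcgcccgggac
Dusp2, chr2:127335909-127336158, plus strand, 250 bases to 1 base before the start: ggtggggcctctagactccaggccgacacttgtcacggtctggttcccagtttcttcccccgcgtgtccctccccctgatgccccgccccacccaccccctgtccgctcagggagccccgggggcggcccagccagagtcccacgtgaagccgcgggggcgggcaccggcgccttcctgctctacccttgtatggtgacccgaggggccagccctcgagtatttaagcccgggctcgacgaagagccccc
Dusp16, chr6:134792629-134792878, minus strand, 250 bases to 1 base before the start: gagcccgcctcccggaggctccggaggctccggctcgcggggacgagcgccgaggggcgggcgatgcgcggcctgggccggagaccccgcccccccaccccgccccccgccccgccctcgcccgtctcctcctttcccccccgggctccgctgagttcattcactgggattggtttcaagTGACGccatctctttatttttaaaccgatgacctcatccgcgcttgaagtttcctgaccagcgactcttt

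The Dusp1 stretch held a full CRE at -143 to -136 and a half-site at -191 to -187, and the Dusp16 stretch held a half-site at -70 to -66, while none was present in the Dusp2 stretch. Of the 32851 RefSeq promoters, 1.5% held the full CRE and 17.8% the half-site within 250 bases. Promoter windows were at hand for 9 members, and 8 motifs were searched on both strands. Beside the genes above, Dusp8 held 2 full CREs, and Dusp5 held a half-site and 2 adjacent CArG boxes, the core of the serum response element (1.5% of promoters). No GENCODE transcript held the bases just after the start used for Dusp8, so that start is not borne out by this annotation. The other motifs were the NF-kB site (7.3% of promoters), AP-1 (TGACTCA or TGAGTCA, 4.5%), the STAT6-type palindrome TTCNNNNGAA (5.9%), TATAAA (12.4%) and the ETS core CCGGAA (12%), and none of these letters occurred in the 9 windows.

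The 3′ untranslated regions also differed. ATTTA, the core word of AU-rich elements that mark short-lived mRNAs, occurred 4 times in the 690 bases of Dusp1 and 4 times in the 581 bases of Dusp2. These densities of 5.8 and 6.88 per kb were higher than in 95% and 96.9% of genes, where the median was 1.35 per kb. Dusp16 held 1.24 per kb and Dusp7 none in 1778 bases, and the other 6 members held 0.84 to 2.7 per kb.

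LPS raised 2 of the 8 members tested and lowered 5, with the nuclear phosphatase Dusp2 and the JNK- and p38-directed Dusp16 on one side and Dusp3, Dusp4, Dusp5, Dusp6 and Dusp7 on the other. Over all 11191 rows, 16.9% were higher and 57.7% lower with LPS at an adjusted p under 0.05 (limma, Benjamini-Hochberg), so the share of lowered members was close to that of all rows. In these bulk samples, fewer cells of a type and less RNA per cell cannot be told apart. The median log2 difference of all rows was -0.44 and that of the members -0.91. Median scaling divided each sample by the median ratio of its rows to their geometric means over the 12 samples. By design this sets the typical row to almost no change. It brought the median of all rows to -0.01 and the share of higher rows among those called from 22.6% to 49.6%. Quantile normalization brought that share to 40.2%. Differences are therefore also given relative to the median of all rows where this matters.

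**Figure D1:**
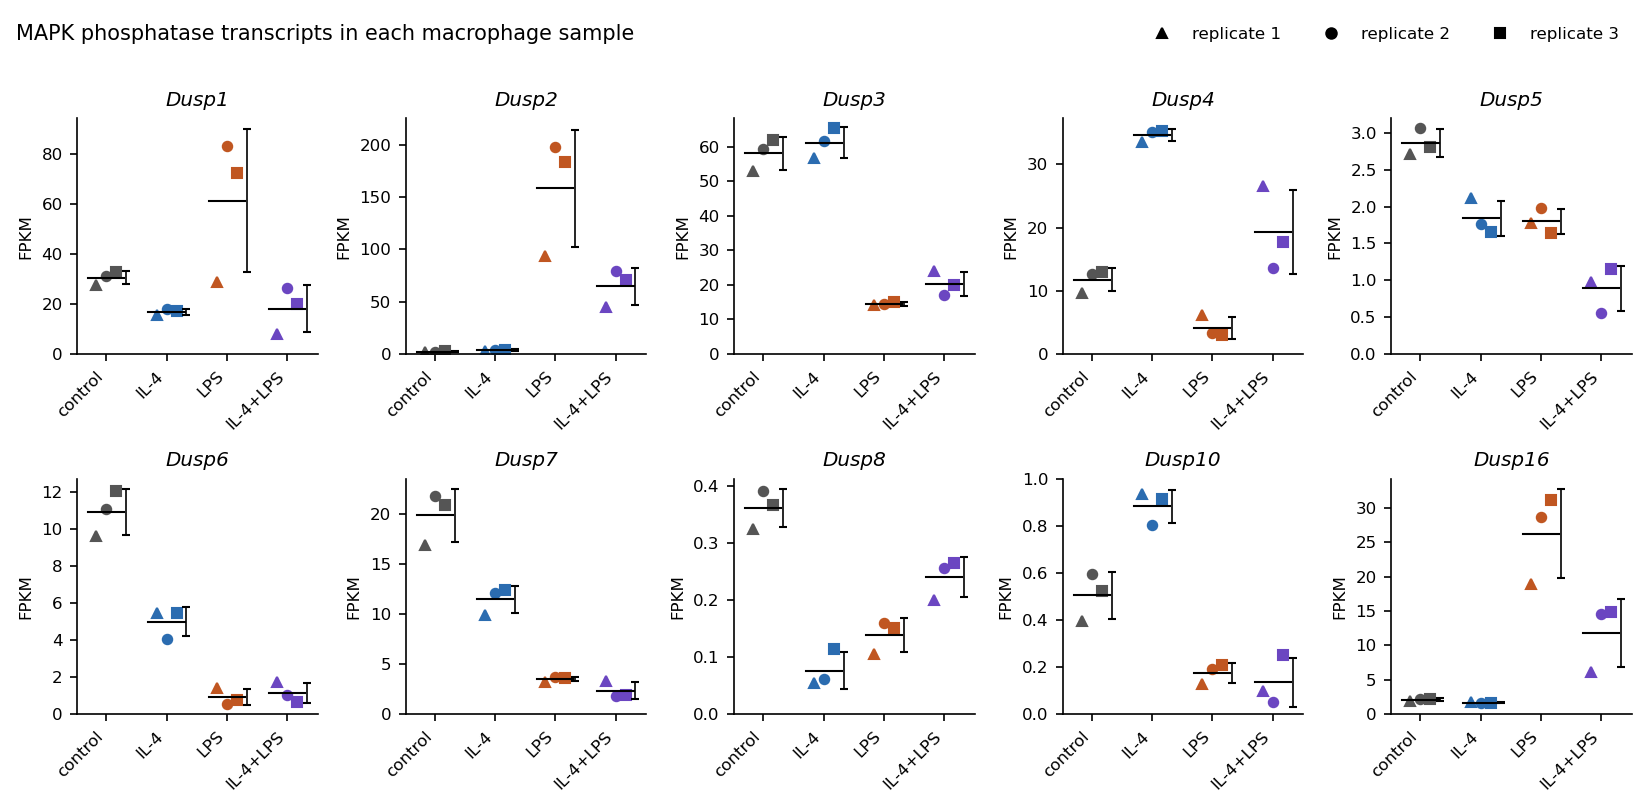
FPKM of the 10 phosphatase genes (y axes, separate linear scale for each gene, starting at 0) in the 4 groups (x axes), with 1 point for each sample and the marker shape giving the replicate number. Horizontal lines are group means and error bars the SD (n = 3); Dusp2 and Dusp16 were highest in LPS, Dusp4 in IL-4, and Dusp6 and Dusp7 in control.

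Dusp2 (PAC-1), a nuclear phosphatase of activated leukocytes, had the largest LPS response of the set. It was at 1.82, 1.98 and 2.32 FPKM in control replicates 1 to 3 and at 94, 197 and 184 FPKM in LPS. All LPS samples lay far above all control samples, and LPS replicate 1 was the lowest of its group. The mean rose from 2.04 ± 0.253 to 158 ± 56.1 FPKM (SD, n = 3), a 77.6-fold difference of means, and the log2 difference was 5.64 ± 0.29 (SE, limma adjusted p = 6.64e-08). With LPS, Dusp2 moved from above 60.5% of all rows to above 98%.

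Dusp16 (MKP-7), which acts on JNK and p38, was at 1.90, 2.17 and 2.27 FPKM in control and at 19, 28.8 and 31.1 FPKM in LPS. The groups did not overlap, and replicate 1 was again the lowest LPS sample. The mean rose 12.5-fold, from 2.11 ± 0.191 to 26.3 ± 6.43 FPKM, with a log2 difference of 3.11 ± 0.28 (limma adjusted p = 2.95e-06).

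Dusp1 (MKP-1), the best known feedback inhibitor of p38 and JNK in macrophages, was already at 27.6, 31.3 and 32.8 FPKM in control, above 90.4% of all rows. In LPS it was at 28.8, 83.1 and 72.5 FPKM. LPS replicates 2 and 3 were above every control sample, and replicate 1 lay within the control range. The log2 difference of 0.85 ± 0.43 did not pass the threshold (limma adjusted p = 0.0925, 95% interval -0.09 to 1.80). Without LPS replicate 1 it was 1.32 (adjusted p = 0.00919), without IL-4+LPS replicate 1, which enters through the shared spread, the p was 0.0348, with replicates 2 and 3 of every group only it was 1.25 (adjusted p = 0.000107), and under median scaling it was 1.37 (adjusted p = 0.0203).

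Among the members lowered by LPS, the cytoplasmic ERK phosphatases changed most. Dusp6 (MKP-3), whose transcription is a common readout of ERK activity, was at 9.65, 11.1 and 12.1 FPKM in control and at 1.43, 0.566 and 0.784 FPKM in LPS. Every LPS sample lay far below every control sample. The mean was 11.8-fold lower, and the log2 difference was -2.65 ± 0.20 (limma adjusted p = 9.36e-07).

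Dusp7, the close relative of Dusp6, fell from 16.9, 21.8 and 20.9 FPKM to 3.24, 3.68 and 3.63 FPKM. The LPS samples were tightly grouped below the control range, with a mean 5.65-fold lower and a log2 difference of -2.20 ± 0.17 (limma adjusted p = 7.98e-07). Dusp3 (VHR) was the most abundant member in control at 52.9, 59.5 and 62.1 FPKM and was at 14, 14.4 and 15 FPKM in LPS. Its mean was 4.02-fold lower without overlap between the groups, a log2 difference of -1.93 ± 0.11 (limma adjusted p = 1.36e-07). These 3 differences were -1.49 to -2.21 relative to the median of all rows, and they passed the threshold under all 22 alternatives.

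Dusp4 (MKP-2), a nuclear phosphatase for ERK and JNK, was at 9.68, 12.7 and 12.9 FPKM in control and at 6.16, 3.23 and 3.03 FPKM in LPS. LPS replicate 1 was the highest of its group but still under the control range, and the log2 difference was -1.35 ± 0.25 (limma adjusted p = 0.000585). Dusp5, a nuclear phosphatase specific for ERK, was at 2.71, 3.07 and 2.81 FPKM in control and at 1.78, 1.98 and 1.65 FPKM in LPS. Its log2 difference of -0.47 ± 0.12 passed the threshold (limma adjusted p = 0.00509) but was -0.02 relative to the median of all rows, and it was -0.10 (adjusted p = 0.52) under median scaling and 0.14 (adjusted p = 0.332) under quantile normalization.

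**Figure D2:**
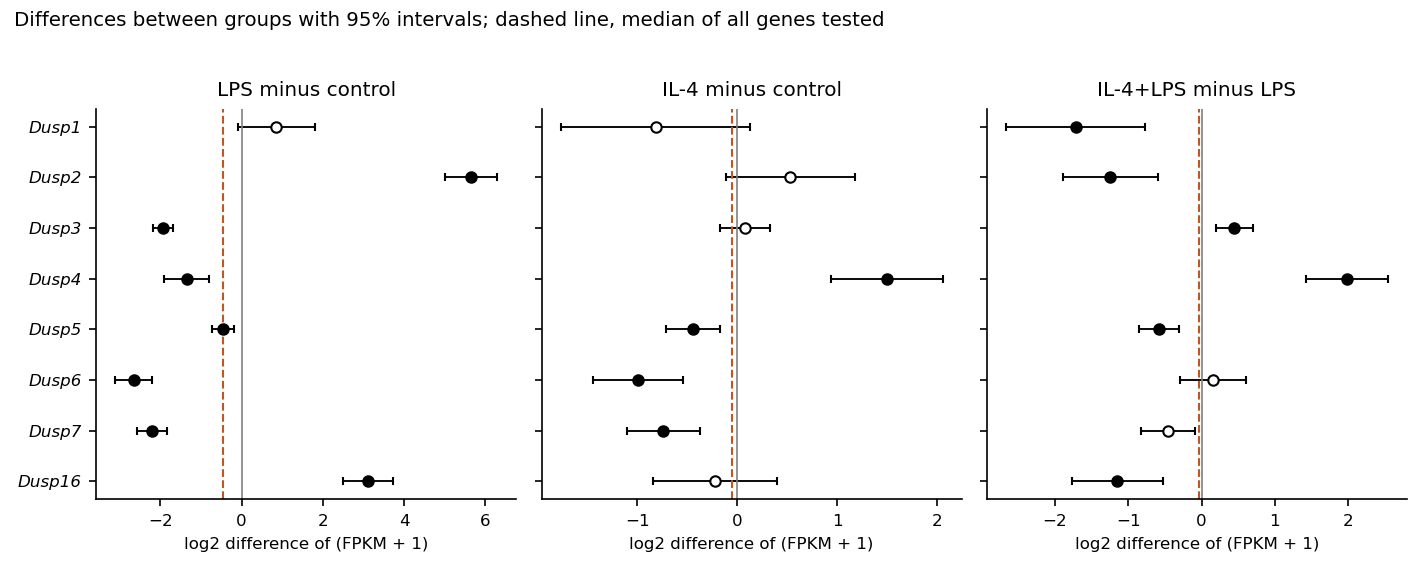
Log2 differences of (FPKM + 1) with 95% intervals (x axes, separate scale for each panel) for the 8 members tested (y axis) in 3 comparisons. Filled points passed an adjusted p under 0.05; the dashed line is the median of all 11191 rows, which Dusp5 met in LPS minus control.

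IL-4 alone raised Dusp4 and lowered Dusp5, Dusp6 and Dusp7, so 1 of 8 members was higher and 3 lower, against 16.0% and 21.0% of all rows. Dusp4 was at 33.6, 35.2 and 35.3 FPKM in the IL-4 group, against 9.68 to 12.9 FPKM in control. The IL-4 samples were nearly equal and all above the control samples. The mean was 2.95-fold higher, the log2 difference was 1.49 ± 0.25 (limma adjusted p = 0.00109), and the call held in all 22 alternatives.

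Dusp6 was at 5.45, 4.08 and 5.49 FPKM after IL-4, a mean 2.18-fold under control, with a log2 difference of -0.99 ± 0.20 (limma adjusted p = 0.00346). Dusp7 was at 9.96, 12.1 and 12.4 FPKM, 1.73-fold under control, with a difference of -0.74 ± 0.17 (limma adjusted p = 0.00564). Both genes fell without overlap between the groups. Dusp5 was at 2.11, 1.77 and 1.66 FPKM with a difference of -0.44 ± 0.12 (limma adjusted p = 0.0159). The Dusp5 call was lost with a pseudocount of 0.1 (adjusted p = 0.0504), under quantile normalization (adjusted p = 0.0786), without control replicate 2 (adjusted p = 0.0542) and without IL-4 replicate 3 (adjusted p = 0.0611).

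Dusp1 was at 15.6, 17.9 and 17.1 FPKM after IL-4, below all 3 control samples, yet its log2 difference of -0.82 ± 0.43 did not pass (limma adjusted p = 0.165). The fit used 1 spread for all groups, and the spread of Dusp1 was set largely by the groups that received LPS (SD of 28.8 FPKM in LPS against 1.16 in IL-4). Fitted on the control and IL-4 samples only, the same difference had an SE of 0.09 and an adjusted p of 0.00137, and with replicates 2 and 3 only it was -0.84 (adjusted p = 0.00214). Dusp2 was at 2.37, 4.07 and 3.92 FPKM, above control in all 3 samples, with a difference of 0.53 ± 0.29 (limma adjusted p = 0.187). With replicates 2 and 3 only, the differences of Dusp2 (0.67, adjusted p = 0.000759) and Dusp16 (-0.29, adjusted p = 0.00742) passed. That fit was chosen after seeing the data, and its SE for Dusp2 was 0.08. In this comparison it called 2406 rows higher and 3286 lower, against 1795 and 2346 in the fit of all samples. Dusp16 (1.74, 1.60 and 1.66 FPKM, adjusted p = 0.577) and Dusp3 (56.6, 61.7 and 65.4 FPKM, adjusted p = 0.646) did not pass in the fit of all samples.

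When IL-4 preceded LPS, Dusp1, Dusp2, Dusp5 and Dusp16 were lower than with LPS alone and Dusp3 and Dusp4 were higher. Dusp6 and Dusp7 were not called. In IL-4+LPS minus LPS, 2 of 8 members were higher and 4 lower, against 15.0% and 15.8% of all rows. Dusp2 was at 44.7, 78.8 and 70.4 FPKM in IL-4+LPS, all below the lowest LPS sample of 94 FPKM. The mean was 2.45-fold lower than in LPS and the log2 difference was -1.25 ± 0.29 (limma adjusted p = 0.00842).

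Dusp16 was at 6.07, 14.6 and 14.8 FPKM in IL-4+LPS, again all below the lowest LPS sample of 19 FPKM. Its mean was 2.22-fold lower and its difference -1.15 ± 0.28 (limma adjusted p = 0.0102). Dusp1 was at 7.91, 26.5 and 20.2 FPKM, all under the lowest LPS sample of 28.8 FPKM. Replicate 1 was the lowest Dusp1 value of both groups, the mean was 3.38-fold lower than in LPS, and the difference was -1.72 ± 0.43 (limma adjusted p = 0.0116). With replicates 2 and 3 only, the 3 differences were -1.71 for Dusp1, -1.34 for Dusp2 and -0.98 for Dusp16, with adjusted p of 0.000102, 4.13e-05 and 4.68e-05.

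Dusp4 kept a higher level when LPS followed IL-4. It was at 26.6, 13.6 and 17.7 FPKM in IL-4+LPS and at 3.03 to 6.16 FPKM in LPS, a mean 4.67-fold higher, with a log2 difference of 1.98 ± 0.25 (limma adjusted p = 0.000191). In the fit of all samples IL-4+LPS also exceeded control (difference 0.63 ± 0.25, limma adjusted p = 0.0416) while LPS alone was below control. Replicate 1 was the highest IL-4+LPS sample, and replicates 2 and 3 lay closer to the control range of 9.68 to 12.9 FPKM. No fit without replicate 1 is at hand for this comparison, so how far the call rests on it was not tested. Dusp3 was at 24, 17.1 and 19.8 FPKM against 14 to 15 FPKM in LPS, a difference of 0.45 ± 0.11 (limma adjusted p = 0.012). Dusp5 reached its lowest values in IL-4+LPS, at 0.970, 0.552 and 1.15 FPKM, with a difference of -0.58 ± 0.12 from LPS (limma adjusted p = 0.00461).

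Dusp6 (1.75, 1.04 and 0.683 FPKM) overlapped its LPS range, and the difference of 0.16 ± 0.20 did not pass (limma adjusted p = 0.607, 95% interval -0.29 to 0.61). Dusp7 (3.35, 1.81 and 1.89 FPKM) was below the LPS range in replicates 2 and 3 and within it in replicate 1, and its difference was -0.46 ± 0.17 (limma adjusted p = 0.0576). It was -0.66 (adjusted p = 0.00296) without IL-4+LPS replicate 1 and -0.71 (adjusted p = 0.000112) with replicates 2 and 3 only, and it passed with a pseudocount of 0.1 (-0.62, adjusted p = 0.0419) and under median scaling (-0.48, adjusted p = 0.0363). A fit of the LPS and IL-4+LPS samples alone kept only the calls of Dusp4 and Dusp5, with adjusted p of 0.0809 for Dusp1, 0.0524 for Dusp2, 0.0533 for Dusp3 and 0.0748 for Dusp16.

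The LPS response after IL-4 had the same called directions as without it. In IL-4+LPS minus IL-4, Dusp2 (log2 difference 3.87 ± 0.29, 18.7-fold by means) and Dusp16 (2.18 ± 0.28, 7.1-fold) were higher, and Dusp3 (-1.56 ± 0.11), Dusp4 (-0.86 ± 0.25), Dusp5 (-0.60 ± 0.12), Dusp6 (-1.50 ± 0.20) and Dusp7 (-1.92 ± 0.17) were lower. These 2 higher and 5 lower members of 8 compare with 15.0% and 57.9% of all rows. Median scaling moved the share of higher rows among those called from 20.6% to 50.4% (37.1% under quantile normalization), and under median scaling the Dusp4 difference was -0.37 and no longer passed (limma adjusted p = 0.202). It did not pass the Tukey test per gene either, where the p adjusted over the pairs of groups was 0.0601. Dusp5 (-0.12, adjusted p = 0.407) no longer passed under quantile normalization. Dusp1 showed no detectable response, with a difference of -0.05 ± 0.43 (limma adjusted p = 0.932, 95% interval -0.99 to 0.90). Its value was 0.44 (adjusted p = 0.423) under median scaling, 0.17 (adjusted p = 0.73) under quantile normalization and 0.43 (adjusted p = 0.301) without IL-4+LPS replicate 1, and it passed at 0.38 (adjusted p = 0.0281) with replicates 2 and 3 only.

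**Figure D3:**
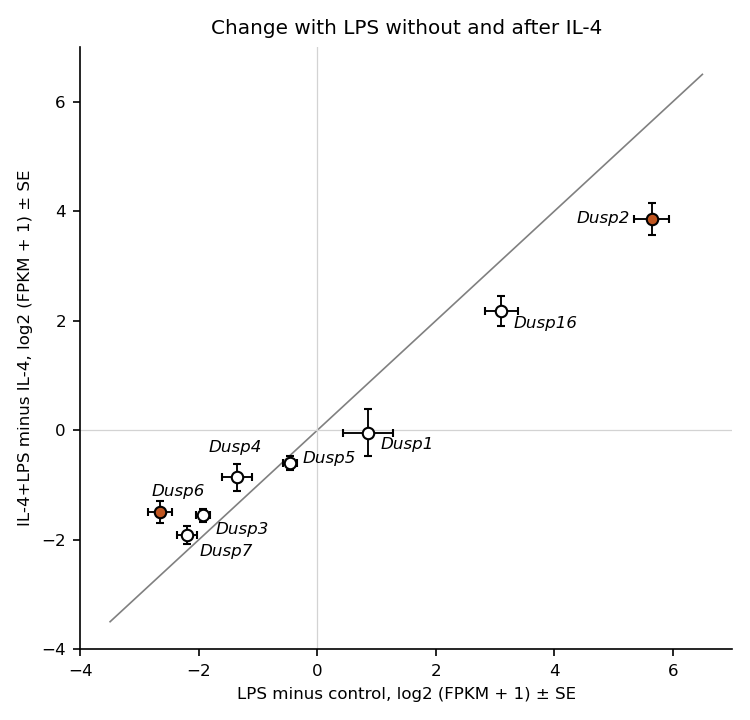
Log2 difference of (FPKM + 1) with LPS in macrophages without IL-4 (x axis) and after IL-4 (y axis), with SE bars, for the 8 members tested; the line marks equal responses. Filled points, Dusp2 below the line and Dusp6 above it, passed the test of the difference between the responses at an adjusted p under 0.05.

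The difference between the LPS responses was tested directly as the interaction, which is the response after IL-4 minus that without it. It passed for Dusp2 (-1.78 ± 0.41, limma adjusted p = 0.0237) and Dusp6 (1.15 ± 0.29, limma adjusted p = 0.0328), 1 member lower and 1 higher of 8, against 4.63% and 4.58% of all rows. Dusp2 gained 156 FPKM on average without IL-4 and 61.2 FPKM after it. Dusp6 dropped by 10 FPKM without IL-4 and dropped by 3.85 FPKM after it, from a level that IL-4 had already lowered, and its means in LPS (0.926 FPKM) and IL-4+LPS (1.16 FPKM) were not told apart.

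Both calls were close to the threshold in the fit without a replicate block. With the replicate number as a block, the limma adjusted p was 0.00126 for Dusp2 and 0.017 for Dusp6. That fit called 1145 rows higher and 1095 lower in the interaction, against 512 and 518 without the block. The Dusp2 value lay between -2.11 and -1.54 over 21 alternatives and passed in 15 of them. It did not pass without control replicate 1 (adjusted p = 0.0534), control replicate 2 (0.056), IL-4 replicate 2 (0.0608), IL-4 replicate 3 (0.0651), LPS replicate 2 (0.0606) or LPS replicate 3 (0.0665), and it was -2.01 (adjusted p = 0.000158) with replicates 2 and 3 only. The Dusp6 value lay between 0.96 and 1.41 and passed in 13 of 21. It did not pass with a pseudocount of 0.1 (adjusted p = 0.108), nor without replicate 2 of control (0.0715), IL-4 (0.0775), LPS (0.0788) or IL-4+LPS (0.0623), nor without replicate 3 of control (0.0783), IL-4 (0.0597) or LPS (0.0823), and it was 1.28 (adjusted p = 0.00751) with replicates 2 and 3 only.

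For Dusp16 (-0.93 ± 0.40, limma adjusted p = 0.181) and Dusp1 (-0.90 ± 0.61, limma adjusted p = 0.42) the 95% intervals of the interaction were -1.81 to -0.05 and -2.24 to 0.44. With replicates 2 and 3 only, Dusp16 (-0.69, adjusted p = 0.0024), Dusp1 (-0.87, adjusted p = 0.0162) and Dusp4 (0.61, adjusted p = 0.035) passed as well. In that fit 1481 rows were higher and 1386 lower in the interaction, against 512 and 518 in the fit of all samples. The interactions of Dusp3 (0.37, adjusted p = 0.181), Dusp4 (0.49, adjusted p = 0.461), Dusp5 (-0.14, adjusted p = 0.696) and Dusp7 (0.28, adjusted p = 0.531) did not pass in the fit of all samples.

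Dusp8 and Dusp10, both directed to JNK and p38, were expressed at low levels, and a fit without the filter (16585 rows) gives their differences. Dusp8 was at 0.324, 0.391 and 0.366 FPKM in control, 0.0544, 0.0608 and 0.114 in IL-4, 0.105, 0.159 and 0.151 in LPS and 0.200, 0.256 and 0.265 in IL-4+LPS. Its order was control, IL-4+LPS, LPS, IL-4, and only the ranges of the neighbours LPS and IL-4 overlapped. Dusp10 (MKP-5) was at 0.398, 0.596 and 0.523 FPKM in control, 0.934, 0.802 and 0.914 in IL-4, 0.128, 0.191 and 0.208 in LPS and 0.1003, 0.0523 and 0.252 in IL-4+LPS. It was highest after IL-4 and at 0.252 FPKM or lower in every sample that received LPS. In that fit LPS minus control was -0.26 ± 0.03 for Dusp8 (limma adjusted p = 6.73e-05) and -0.36 ± 0.07 for Dusp10 (adjusted p = 0.00143), and IL-4 minus control was -0.34 ± 0.03 (adjusted p = 5.37e-05) and 0.33 ± 0.07 (adjusted p = 0.00685). After IL-4 the LPS difference of Dusp8 had the opposite sign, at 0.21 ± 0.03 in IL-4+LPS minus IL-4 (adjusted p = 0.000365), with an interaction of 0.46 ± 0.05 (adjusted p = 0.000404). That of Dusp10 was -0.73 ± 0.07 (adjusted p = 1.37e-05), with an interaction of -0.38 ± 0.10 (adjusted p = 0.0492). In IL-4+LPS minus LPS the differences were 0.12 ± 0.03 for Dusp8 (adjusted p = 0.0211) and -0.06 ± 0.07 for Dusp10 (adjusted p = 0.687). At these levels each value may rest on few fragments, whose number is unknown, and the differences on the log2(FPKM + 1) scale understate the change.

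The order of the 4 group means set the members apart. Dusp2 ran LPS, IL-4+LPS, IL-4, control, and Dusp16 ran LPS, IL-4+LPS, control, IL-4, and the last pair of each did not pass the threshold in the fit of all samples, although the sample ranges of IL-4 and control did not overlap. Dusp1 ran LPS, control, IL-4+LPS, IL-4, and no neighbours in that order passed the test, although LPS exceeded IL-4 (difference 1.67 ± 0.43, limma adjusted p = 0.00461). Dusp4 ran IL-4, IL-4+LPS, control, LPS, with all neighbours past the threshold in the fit of all samples. The pair of IL-4+LPS and control was close to it (limma adjusted p = 0.0416) and was not fitted without replicate 1. Dusp3 ran IL-4, control, IL-4+LPS, LPS, where only IL-4 and control, whose ranges overlapped, did not pass. Dusp6 ran control, IL-4, IL-4+LPS, LPS, and Dusp7 ran control, IL-4, LPS, IL-4+LPS, and the last pair of each did not pass. Dusp5 had the order of Dusp7, with IL-4 and LPS as the pair that did not pass (adjusted p = 0.885).

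For each member that passed the filter, the 3 genes with the most similar pattern over the 12 samples were taken from 8579 rows with a highest level of at least 5 FPKM. The points of each correlation share the 4 treatments, so high values of r are usual and are given as a description. Dusp1 was nearest to Smim3 (r = 0.975), Rbm22 and Rcan1, and Dusp2 to Anxa7 (r = 0.997), Spred1 and Slc39a14. Dusp16 was nearest to Niacr1 (r = 0.997), Cd38 and Myadm, and Dusp4 to Dock2 (r = 0.984), Shc1 and Tbxas1. Dusp3 was close to Rab3d (r = 0.997) and Wls, Dusp5 to Dynlt1c (r = 0.975), Mamdc2 and Dynlt1b (Dynlt1b and Dynlt1c are near-identical copies whose reads may be split between them), Dusp6 to Hexa (r = 0.991), Polr3b and Fastkd3, and Dusp7 to Deaf1 (r = 0.994), Smpd1 and Atp13a2. Spred1, an inhibitor of Raf activation, was thus among the genes nearest to Dusp2. It rose from 29 ± 1.69 to 115 ± 9.36 FPKM with LPS and was at 81.4 ± 3.59 FPKM in IL-4+LPS, with an interaction of -0.66 ± 0.11 (limma adjusted p = 0.00378).

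The kinases that the phosphatases act on ranged from -0.94 to 1.40 on the log2 scale with LPS. Of 8 MAP kinases tested, 2 were higher and 4 lower with LPS, beside 16.9% and 57.7% of all rows, with a median log2 difference of -0.18. The p38-beta gene Mapk11 rose from 1.11 ± 0.19 to 4.64 ± 1.2 FPKM (difference 1.40 ± 0.17, limma adjusted p = 2.63e-05) and was at 0.85 ± 0.319 FPKM in IL-4+LPS (difference from LPS -1.60 ± 0.17, adjusted p = 5.39e-05). With IL-4 alone Mapk11 was at 0.101 ± 0.0152 FPKM, and it was higher in IL-4+LPS than in IL-4 (0.73 ± 0.17, limma adjusted p = 0.00263). Its interaction did not pass (-0.665 ± 0.24, limma adjusted p = 0.117). Mapk7 (ERK5) had the largest decrease with LPS (-0.94 ± 0.12, adjusted p = 4e-05). Mapk14, which encodes the main p38 kinase of macrophages, was lowered by IL-4 (64.9 to 35.8 FPKM, difference -0.85 ± 0.09, adjusted p = 4.14e-05) and at 79.6 FPKM in IL-4+LPS, with an interaction of 0.95 ± 0.12 (adjusted p = 0.00114). IL-4 raised 1 MAP kinase, Mapk6 (0.33 ± 0.12, adjusted p = 0.0481), and lowered 4, beside 16.0% and 21.0% of all rows.

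Upstream, 2 of 6 MAPK kinases were higher and 2 lower with LPS, beside 16.9% and 57.7% of all rows, led by Map2k4 (1.30 ± 0.16, limma adjusted p = 3.25e-05), a JNK activator, and Map2k5 (-1.11 ± 0.09, adjusted p = 9.75e-07), the activator of ERK5. Of 19 MAPK kinase kinases and TAB proteins tested, 4 were higher and 10 lower, beside the same shares of all rows, led by Tab2 (1.69 ± 0.14, adjusted p = 1.52e-06), an adaptor of TAK1, and Map3k1 (-2.48 ± 0.16, adjusted p = 2.51e-07). In IL-4+LPS minus LPS none of these 25 genes was higher, beside 15.0% higher and 15.8% lower of all rows, while 3 MAPK kinases, with Map2k3 (-0.71 ± 0.15, adjusted p = 0.00517) the most, and 5 MAPK kinase kinases and TAB proteins, with Map3k5 (-0.74 ± 0.20, adjusted p = 0.0166) the most, were lower. Map2k3, an activator of p38, also had an interaction of -1.06 ± 0.22 (adjusted p = 0.012). IL-4 alone raised 1 of the 19, Map3k6 (0.46 ± 0.15, adjusted p = 0.0289), and lowered 10, beside 16.0% and 21.0% of all rows, most of all Map3k14 (-1.20 ± 0.18, adjusted p = 0.000609).

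Downstream, 3 of 10 MAPK-activated kinases were higher and 4 lower with LPS, beside 16.9% and 57.7% of all rows. Mapkapk2, the p38-activated kinase that stabilizes cytokine mRNAs, rose from 102 ± 19.9 to 832 ± 178 FPKM (difference 3.00 ± 0.25, limma adjusted p = 1.45e-06), and Mknk2, an ERK- and p38-activated kinase of eIF4E, fell from 54.9 ± 2.03 to 2.52 ± 0.522 FPKM (difference -3.998 ± 0.18, adjusted p = 2.84e-08). Of the ERK-linked immediate early genes, 2 of 11 were higher with LPS and 7 lower, beside those shares of all rows, with a median of -1.30. Fos fell from 91.7 ± 11.4 to 7.06 ± 2.97 FPKM (difference -3.58 ± 0.43, adjusted p = 2.5e-05), while Junb rose from 56.2 ± 1.37 to 246 ± 59.1 FPKM (difference 2.08 ± 0.22, adjusted p = 1.04e-05). IL-4 alone raised 5 of the 11 and lowered 1, beside 16.0% and 21.0% of all rows, with Ier3 (1.89 ± 0.31, adjusted p = 0.000958) and Nr4a1 (-1.68 ± 0.23, adjusted p = 0.000315) at the ends.

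**Figure D4:**
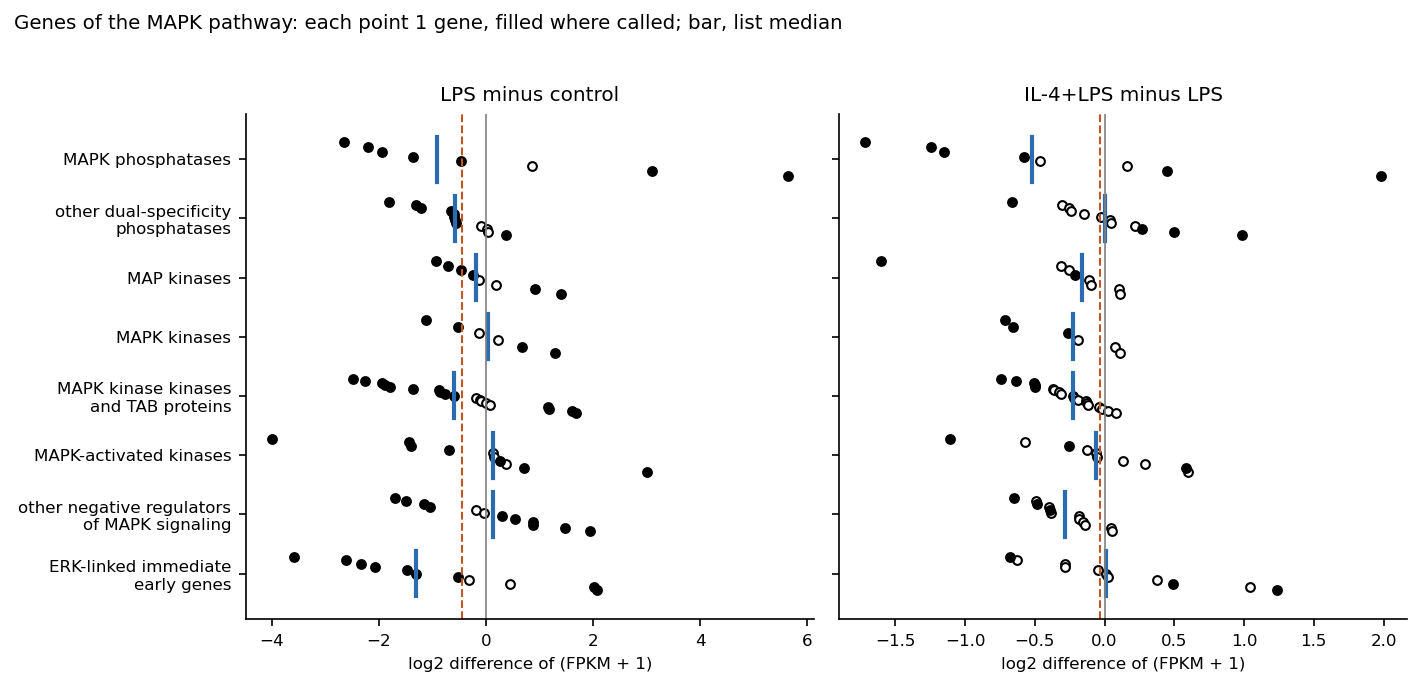
Log2 differences of (FPKM + 1) (x axes) for each tested gene of 8 lists of the MAPK pathway (y axis), for LPS minus control and IL-4+LPS minus LPS. Filled points passed an adjusted p under 0.05, blue bars are list medians and the dashed line is the median of all rows; the phosphatases ran from -2.65 to 5.64 with LPS.

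Other phosphatases and inhibitors moved over a narrower range. Of 12 other dual-specificity phosphatases tested, 1 was higher with LPS, the RNA phosphatase Dusp11 (0.37 ± 0.07, limma adjusted p = 0.000424), and 8 were lower, most of all Dusp22 (22 to 5.53 FPKM, difference -1.82 ± 0.08, adjusted p = 1.55e-08), beside 16.9% and 57.7% of all rows. Dusp23 had the largest increase with IL-4 (0.74 ± 0.16, adjusted p = 0.00527) and in IL-4+LPS minus LPS (0.99 ± 0.16, adjusted p = 0.00112). Of 12 other negative regulators of MAPK signaling, 6 were higher with LPS and 4 lower, against those same shares of all rows, with Spred1 (1.94 ± 0.08, adjusted p = 1.03e-08) and the tyrosine phosphatase gene Ptpn7 (-1.70 ± 0.22, adjusted p = 3.96e-05) at the ends. In IL-4+LPS minus LPS none of the 12 was higher and 3 were lower, beside 15.0% and 15.8% of all rows, most of all Spred2 (-0.65 ± 0.12, adjusted p = 0.00207). The median log2 difference with LPS was -0.58 for the other dual-specificity phosphatases and 0.13 for the other negative regulators, beside -0.91 for the members and -0.44 for all rows.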

How the data were processed

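Poly-A selected libraries (TruSeq, which does not mark the strand) were sequenced by the authors as paired 100-base reads. Per the labels and the study's methods, the authors mapped reads to mm10 (TopHat2 2.0.7) and deposited FPKM values from Cufflinks 2.0.2, 1 table per sample; the gene annotation was not given in the sources used here. Because FPKM is a share of what was mapped, a few genes that rise strongly push down the values of the rest.

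The members, gene lists and naming rule (all members, the largest called increase and decrease of each list in each comparison, and the 3 genes most like each member) were chosen with earlier results of these data known. One gene that the rule names is not reported here. Rows at 1 FPKM or more in at least 1 of 12 samples were kept. A group-means model on log2(FPKM + 1) was fitted over all 12 samples with limma 3.58.1 in R 4.3.3 (lmFit, eBayes with trend), with Benjamini-Hochberg adjustment over 11191 rows and a threshold of 0.05. Differences on this scale understate the change of low genes. Without read counts, the error rests on the replicates alone. The script was tested on simulated data. Alternatives were other filters, pseudocounts, scalings, groups in the fit, a replicate block, a Tukey test per gene and each sample left out. A fit of replicates 2 and 3 only was chosen after seeing the data. Figures were drawn with matplotlib 3.10.9.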

Additional observations from a re-analysis of the deposited data

Results flagged for a closer look

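Among the 8 members that passed the filter, the LPS response of 2 differed between macrophages with and without IL-4 by a test of the difference itself. The interaction was -1.78 (log2 scale) for Dusp2, which rose less with LPS after IL-4, and 1.15 for Dusp6, which fell less with LPS after IL-4 from a lower starting level (limma adjusted p = 0.0237 and 0.0328). In the fit without the filter the low-level genes Dusp8 (0.46, limma adjusted p = 0.000404) and Dusp10 (-0.38, adjusted p = 0.0492) also passed the test of the interaction. Neither the Dusp2 nor the Dusp6 call held in every alternative, as given with the values above.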

How the results depend on the processing

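Of 480 results with a sample left out, 459 kept their direction and side of the threshold, 15 lost and 3 gained significance and 3 reversed. Of 352 results under other alternatives, 324 were unchanged, 11 lost and 12 gained significance and 5 reversed. The reversed values were small except for Dusp1 in IL-4+LPS minus IL-4, which passed the threshold in 1 fit. Dusp5 in LPS minus control was 0.139 and Dusp3 in IL-4 minus control -0.008 under quantile normalization. Dusp1 in IL-4+LPS minus IL-4 was 0.439 under median scaling, 0.174 under quantile normalization, between -0.379 and 0.432 with 1 sample left out (0.432 without IL-4+LPS replicate 1), and 0.381 (limma adjusted p = 0.0281) with replicates 2 and 3 only. Dusp6 in IL-4+LPS minus LPS ran from -0.032 (without IL-4+LPS replicate 1) to 0.337, and the Dusp5 interaction from -0.235 to 0.001 (without IL-4+LPS replicate 2). The causes were not tested.

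Counts of called members moved as follows. In IL-4 minus control, 2 members were higher without the filter, with the replicate block and with replicates 2 and 3 only, and 5 were lower with replicates 2 and 3 only. Of all 11191 rows, the block called 2402 higher and 3183 lower in this comparison. Replicates 2 and 3 only called 2406 and 3286, against 1795 and 2346 in the main fit. In IL-4+LPS minus LPS, 1 was higher and 1 lower when only the compared groups were fitted. In the interaction, 0 were higher with a pseudocount of 0.1, 2 were higher and 2 lower without the filter, and 2 were higher and 3 lower with replicates 2 and 3 only. Leaving out 1 sample at a time gave 0 to 1 member in each direction for the interaction, 2 to 3 higher in LPS minus control, 2 to 3 lower in IL-4 minus control and 4 to 5 lower in IL-4+LPS minus LPS. Other settings moved counts by at most 1.5 times. LPS minus control gave 3 higher under median scaling, with the replicate block and with replicates 2 and 3 only, and 4 lower under both scalings. Over all rows it gave 3558 higher and 3610 lower under median scaling, and 2903 and 4326 under quantile normalization. The block gave 2169 and 7013, and replicates 2 and 3 only 2178 and 7032, against 1887 and 6462 in the main fit. IL-4 minus control gave 2 lower with a pseudocount of 0.1 and under quantile normalization (2052 of all rows lower), and 4 lower with the block and with only the compared groups. IL-4+LPS minus IL-4 gave 3 higher with replicates 2 and 3 only and 4 lower under both scalings and the Tukey test. Among all rows, 1951 were higher with replicates 2 and 3 only, against 1682 in the main fit. Lower were 3283 under median scaling and 4173 under quantile normalization, against 6474. IL-4+LPS minus LPS gave 5 lower with a pseudocount of 0.1, under median scaling and with replicates 2 and 3 only. Here 1840 of all rows were lower under median scaling and 2901 with replicates 2 and 3 only, against 1771 in the main fit. The fit without the filter tests all 10 members and called 7 lower in LPS minus control, 4 lower in IL-4 minus control, 3 higher and 6 lower in IL-4+LPS minus IL-4 and 3 higher in IL-4+LPS minus LPS. The shares of all rows called in that fit are not at hand. They are also missing for the other pseudocount, the fit of only the compared groups, the Tukey test and the fits with a sample left out. None of the counts above are therefore read as a result about the members.

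The labels do not say that replicate numbers pair the samples, but the samples numbered 1 shared a deviation. On the main axis of the deviations from the group means (first principal component, 28.2% of their variance), replicate 1 lay at 15.5 to 33.3. Replicate 2 lay at -18.6 to -9.49 and replicate 3 at -14.7 to -4.45. Deviations from the group means had an r of 0.0024 to 0.386 between samples with the same number, over 0.1 in 11 of 18 pairs, and 7 of 12 samples correlated best with their own number. With the number as a replicate block, 37 of 40 results kept their call, and Dusp1 in LPS minus control (0.85, limma adjusted p = 0.0237) and IL-4 minus control (-0.82, adjusted p = 0.0462) and Dusp2 in IL-4 minus control (0.53, adjusted p = 0.0202) passed the threshold. Levels under 1 FPKM may rest on few fragments, and no interval from counts could be formed.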
